A study of Mus musculus with 24 samples.

Results

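Norrin is a secreted ligand of the retina that acts on vascular endothelium through the receptor Frizzled-4, and the 10 genes described here are its ligand, its receptor complex and the endothelial genes of the blood-retina barrier. They were chosen by name: Ndp, Fzd4, Lrp5, Tspan12, Sox17, Lef1, Cldn5, Mfsd2a, Slc38a5 and Plvap. All 10 had a row of their own among the 36109 genes listed for the lung and the 36595 listed for the retina, and all 10 passed the filter on low counts in both tissues. Whole-tissue RNA was sequenced from 24 newborn mice, 12 for the lung and 12 for the retina, with 3 mice in each of 4 groups: wild-type mice in room air (WT-RA) or hyperoxia (WT-O2) and GSDMD KO mice in room air (KO-RA) or hyperoxia (KO-O2). The KO mice carried a short CRISPR deletion in Gsdmd in every cell, and WT mice were their littermates from heterozygote matings on a C57/B6 background. Up to collection, the paper describes no treatment of the groups other than the oxygen they breathed. Lungs were taken on postnatal day 15 after 85% oxygen or room air from day 1 to day 14. Retinas were taken on postnatal day 18, and their hyperoxia groups had 75% oxygen only from day 7 to day 12 and then breathed room air, so the retina was sampled in the recovery that follows vessel loss and not during exposure.

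In the canonical form of this pathway, Norrin (Ndp), made mainly by Mueller glia in the retina, binds Frizzled-4 (Fzd4) with the co-receptor Lrp5 and the tetraspanin Tspan12 on endothelial cells. Beta-catenin then accumulates and acts with TCF and LEF factors, of which Lef1 is one, and the transcription factor Sox17 lies downstream in retinal endothelium. Endothelium with active signaling makes the tight junction protein claudin-5 (Cldn5), the lipid transporter Mfsd2a, which holds down transcytosis, and the glutamine transporter Slc38a5, while it keeps low the fenestral diaphragm protein Plvap, a marker of leaky and growing vessels. Lung capillaries have no such barrier, and several of the same genes serve there as general endothelial genes.

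The libraries were checked before the members were compared. Total counts were 28763661 to 29604254 in the lung and 24863257 to 29093035 in the retina. Levels below are CPM, a gene's count relative to the library's size after TMM scaling, and each library is named by its group and replicate. Photoreceptor genes summed to 53440 CPM or more in every retina and to 5.25 CPM or less in every lung, whereas lung epithelium genes summed to 22570 CPM or more in every lung. Gsdmd, the targeted gene, averaged 41.6 ± 1.48 and 34.4 ± 2.11 CPM of total counts in lungs of WT mice (room air and hyperoxia), and 24.3 ± 1.04 and 13.5 ± 2.77 CPM in those of KO mice (SD, n = 3 each), with no overlap between genotypes. In the retina it was 0.392 to 5.95 CPM in libraries labelled WT and 0.582 to 3.07 CPM in libraries labelled KO, and the lowest of all was labelled WT-RA replicate 2, so the transcript level did not separate the genotypes there. 3 room air retinas stood apart by lens RNA: lens genes took 3.44% of the counts in the library labelled WT-RA replicate 2, 9.67% in WT-RA replicate 3 and 5.63% in KO-RA replicate 3, against at most 0.0453% in the other retinas. By Y-linked expression all 6 room air retinas were male, and 1 of 3 in each hyperoxia group was. The retina calls after hyperoxia are therefore also given without those 3 retinas.

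The members ranked in a different order in the 2 tissues, on a scale of CPM per kilobase of merged exons. In WT-RA retinas Cldn5 stood first at 22.4 ± 3.23, followed by Mfsd2a at 4.71 ± 1.52, Ndp at 4.66 ± 0.148 and Plvap at 3.78 ± 0.228 (SD, n = 3 each). Mfsd2a did not differ beyond the spread from Ndp or from Plvap, and the same held for Tspan12 at 2.45 ± 0.455 and Slc38a5 at 1.78 ± 0.584. Sox17 followed at 1.31 ± 0.242, within the spread of Slc38a5, and Fzd4 at 0.943 ± 0.137, whose spread met that of Sox17. Lrp5 came next at 0.700 ± 0.0259 and Lef1 last at 0.460 ± 0.125. In WT-RA lungs Cldn5 was again first at 367.5 ± 16.9, with Plvap next at 257.0 ± 27.6 and Slc38a5 at 57.2 ± 10.9. Sox17 at 30.8 ± 2.45 and Fzd4 at 27.6 ± 6.27 lay within their spread, as did Lrp5 at 19.3 ± 0.860 and Tspan12 at 18.7 ± 1.64. Lef1 followed at 2.06 ± 0.164. The ligand Ndp at 0.835 ± 0.530 and the transporter Mfsd2a at 0.545 ± 0.199 came last and lay within their spread. They had between 8 and 77 rounded counts per lung, so the lung comparisons of these 2 genes rest on few reads. The tables were normalized separately, and no test was made between tissues.

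The start regions of the members were read from RefSeq (build GRCm38.p6) to show the TCF/LEF core, the short motif through which Lef1 and its relatives bind DNA. The table held windows of 300 bases, from 250 before to 50 after a start, for 7 of the 10 members and 10 windows in all. The core was searched as CTTTGA or CTTTGT on either strand, and was found in 31.2% of 32851 such windows and in 4 of the 10 member windows. Sox17, Plvap and Lrp5 had no window. 4 windows are printed 5′ to 3′ on the gene's strand, because they belong to a transcription factor gene that fell in the lung (Lef1, at its first start and at a start further inside the gene), to a transporter that fell there with it (Slc38a5) and to the gene that passed the test in both genotypes of the retina (Cldn5). The other transcription factor gene that fell in the lung, Sox17, could not be shown. Capitals mark the core.
Lef1, first start, chr3:131110047-131110346, plus strand: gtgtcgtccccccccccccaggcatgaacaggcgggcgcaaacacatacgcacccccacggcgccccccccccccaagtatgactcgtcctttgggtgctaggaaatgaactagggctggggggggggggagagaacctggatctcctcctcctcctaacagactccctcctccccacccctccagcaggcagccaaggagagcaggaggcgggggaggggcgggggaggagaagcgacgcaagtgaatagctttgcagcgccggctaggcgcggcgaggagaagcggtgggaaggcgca
Lef1, inner start, chr3:131156044-131156343, plus strand: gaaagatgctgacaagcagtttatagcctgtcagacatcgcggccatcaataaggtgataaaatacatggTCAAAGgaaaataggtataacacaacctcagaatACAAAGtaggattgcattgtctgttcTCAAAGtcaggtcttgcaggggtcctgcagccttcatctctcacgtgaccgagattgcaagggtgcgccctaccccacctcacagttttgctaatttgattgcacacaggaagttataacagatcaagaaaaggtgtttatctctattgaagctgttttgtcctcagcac
Slc38a5, chrX:8271131-8271430, plus strand: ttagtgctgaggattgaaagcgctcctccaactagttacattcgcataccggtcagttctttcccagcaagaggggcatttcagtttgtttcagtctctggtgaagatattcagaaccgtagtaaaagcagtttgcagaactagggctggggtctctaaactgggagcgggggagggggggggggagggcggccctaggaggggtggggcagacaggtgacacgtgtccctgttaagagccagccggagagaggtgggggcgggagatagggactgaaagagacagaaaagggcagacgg
Cldn5, chr16:18776597-18776896, plus strand: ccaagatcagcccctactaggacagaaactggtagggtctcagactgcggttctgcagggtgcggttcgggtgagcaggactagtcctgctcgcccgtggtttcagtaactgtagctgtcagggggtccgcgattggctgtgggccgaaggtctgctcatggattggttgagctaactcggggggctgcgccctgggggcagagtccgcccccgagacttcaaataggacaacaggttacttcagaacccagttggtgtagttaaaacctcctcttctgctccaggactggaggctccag
The inner Lef1 window held 3 cores, beginning 180, 146 and 120 bases before the start, and the other 3 Lef1 windows held none. Mfsd2a, Tspan12 and Ndp held 1 core each, 115, 117 and 171 bases before their starts, and Cldn5, Slc38a5 and Fzd4 held none. A match is a match of letters only.

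Among the retina's barrier genes, Cldn5 was higher after hyperoxia in both genotypes, and in KO mice the call depended on single mice. Cldn5, the main claudin of endothelial tight junctions, was at 36.4, 27.3 and 31.6 CPM in WT-RA and at 71.2, 46.5 and 54.5 CPM in WT-O2 mice. In GSDMD-KO mice it was at 29.98, 36.93 and 30.04 CPM in KO-RA and at 51.7, 52.9 and 46.5 CPM in KO-O2 mice. All 6 hyperoxia-exposed retinas were above all 6 room air retinas. In bulk tissue such as this, more or fewer cells of a type and more or less RNA per cell cannot be told apart. The log2 fold change was 0.85 (SE 0.16, edgeR quasi-likelihood adjusted p = 0.021) in WT and 0.64 (SE 0.16, edgeR adjusted p = 0.050) in KO mice, and the difference between these effects was -0.21 (SE 0.23, edgeR adjusted p = 0.77). Without the 3 lens-rich retinas, which leaves WT-RA with 1 mouse, Cldn5 kept its direction at 0.65 and 0.59 but missed the threshold of an adjusted p under 0.1, with edgeR adjusted p = 0.19 and 0.16. Without the library labelled WT-RA replicate 2 alone it was 0.75 in WT (edgeR adjusted p = 0.090). In KO it did not pass without KO-RA replicate 1, KO-RA replicate 3 or KO-O2 replicate 2 (edgeR adjusted p = 0.16, 0.15 and 0.18). With sex as a term it was 1.04 and 0.85 (edgeR adjusted p = 0.023 and 0.047).

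Plvap, which forms the diaphragms of fenestrae and marks immature or leaky vessels, was also higher after hyperoxia, and it passed the test in the KO mice. It was at 7.92, 7.59 and 7.02 CPM in WT-RA and at 9.85, 11.6 and 11.2 CPM in WT-O2 mice, with no overlap between the groups. In KO mice it was at 5.75, 6.22 and 4.29 CPM in room air and at 9.47, 14.3 and 9.53 CPM after hyperoxia. Plvap rose by 1.03 on the log2 scale in KO mice (SE 0.19, edgeR adjusted p = 0.016), and it passed at 0.90 without the lens-rich retinas (edgeR adjusted p = 0.089). In WT mice the log2 difference was 0.53 (SE 0.19, edgeR adjusted p = 0.17), and the difference between genotypes in this effect, 0.50 (SE 0.27), did not pass the test (edgeR adjusted p = 0.54). The KO-RA retina with the lowest Plvap, replicate 3, was rich in lens RNA and also held 2906 CPM of retinal pigment epithelium and choroid genes, against 116.7 to 729.3 CPM in the other 11 retinas. The part of that tissue in the Plvap result was not tested.

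**Figure D1:**
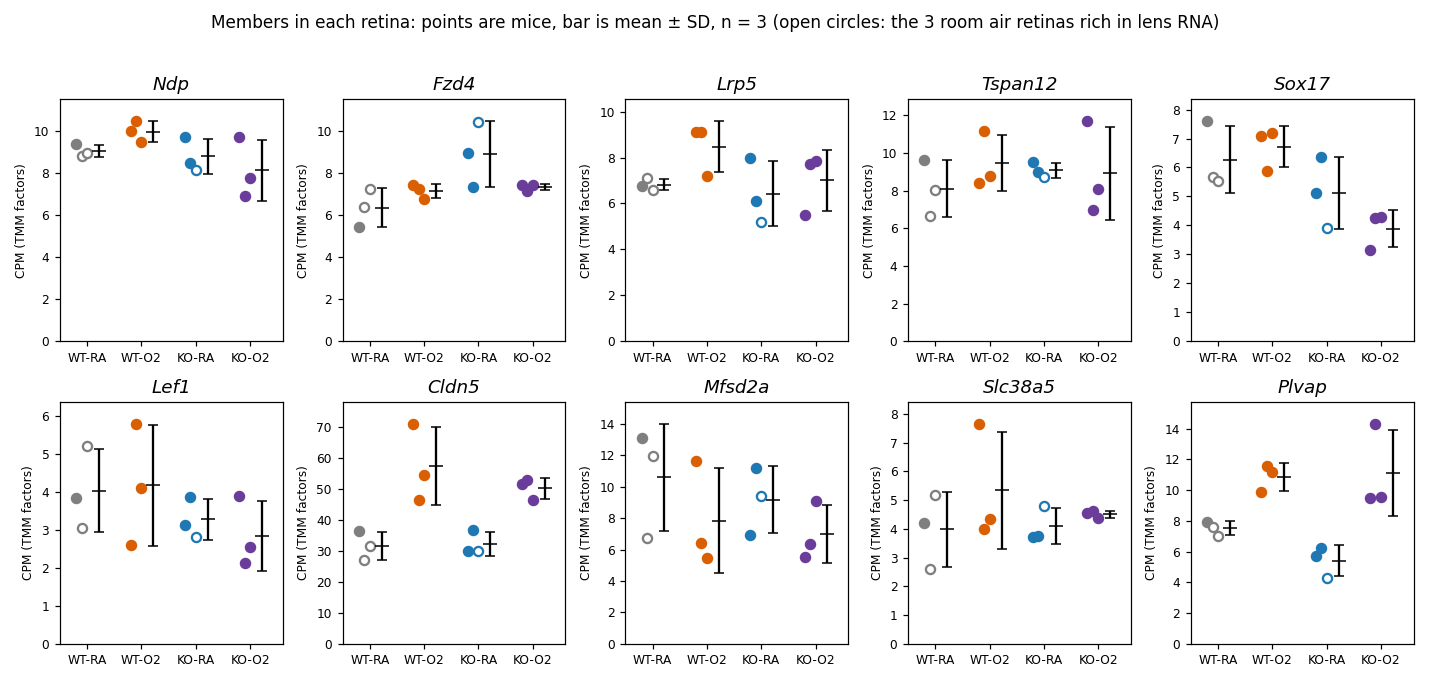
Levels of the 10 members in each retina, in CPM with TMM factors on an axis from 0, by group; points are mice, open circles the 3 lens-rich room air retinas, and bars the mean ± SD of 3 mice. All hyperoxia-exposed mice lie above all room air mice for Cldn5 and for Plvap, whose KO-RA mice are lowest.

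The other barrier transporters of the retina did not pass the test in either genotype. Mfsd2a, the suppressor of transcytosis, averaged 10.6 ± 3.41 CPM in WT-RA and 7.84 ± 3.34 CPM in WT-O2, and 9.17 ± 2.13 CPM in KO-RA and 7.00 ± 1.86 CPM in KO-O2 (SD, n = 3). Its log2 differences were -0.43 (SE 0.33) in WT and -0.39 (SE 0.33) in KO mice, and the groups overlapped. Slc38a5, the endothelial glutamine carrier, averaged 3.99 ± 1.31 and 5.34 ± 2.02 CPM in WT-RA and WT-O2 and 4.10 ± 0.615 and 4.51 ± 0.123 CPM in KO-RA and KO-O2, with log2 differences of 0.42 (SE 0.29) and 0.14 (SE 0.29). A single WT-O2 mouse, at 7.66 CPM of Slc38a5, stood above the rest, which lay between 2.59 and 5.18 CPM.

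The ligand and its receptor complex showed differences smaller than or close to the spread between mice. Ndp was at 9.36, 8.81 and 8.95 CPM in WT-RA and at 10.0, 10.4 and 9.46 CPM in WT-O2 mice, and at 9.73, 8.48 and 8.15 CPM in KO-RA and 9.72, 6.91 and 7.77 CPM in KO-O2 mice. The WT groups did not overlap, but the log2 difference was only 0.14 (SE 0.14), and it was -0.11 (SE 0.14) in KO mice. Fzd4 averaged 6.34 ± 0.919, 7.15 ± 0.336, 8.89 ± 1.56 and 7.32 ± 0.154 CPM in WT-RA, WT-O2, KO-RA and KO-O2. Lrp5 averaged 6.82 ± 0.252, 8.47 ± 1.11, 6.42 ± 1.42 and 7.01 ± 1.33 CPM, and Tspan12 8.11 ± 1.505, 9.46 ± 1.49, 9.07 ± 0.401 and 8.93 ± 2.46 CPM, in the same order of groups. For these 3 genes the log2 differences after hyperoxia lay between -0.28 and 0.31 with SEs of 0.16 to 0.20, and none passed the test. Across the 10 members, 1 passed in WT and 2 passed in KO retinas, all higher, where 3.11% and 4.38% of the 19173 genes tested passed as higher. At a fold change of at least 2, 0 members in WT and Plvap in KO retinas remained, against 1.77% and 1.64% of all genes. Without a threshold, 4 members in WT (Cldn5, Plvap, Ndp and Lrp5) and 2 in KO retinas had hyperoxia groups wholly above the room air groups, against 12.1% and 13.5% of all genes.

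The 2 transcription factors of the pathway had their lowest means in hyperoxia-exposed KO retinas. Sox17, an arterial and barrier-related endothelial factor, was at 7.60, 5.68 and 5.53 CPM in the WT-RA mice and at 7.08, 5.89 and 7.18 CPM in the WT-O2 mice. In KO mice it was at 5.10, 6.36 and 3.89 CPM in room air and at 3.16, 4.24 and 4.27 CPM after hyperoxia. Every KO-O2 mouse was below every WT-O2 mouse. The log2 difference between KO-O2 and WT-O2 was -0.79 (SE 0.22), with an edgeR adjusted p of 0.15, and DESeq2's Wald test gave an adjusted p of 0.038, so the call depended on the tool. Vessel and blood cell genes differed in the same direction: 12 of 14 endothelium genes (median log2 difference -0.27) and 11 of 12 pericyte genes (median -0.34) were lower in KO-O2 retinas with none passing, and 4 of 7 tested erythroid genes passed as lower, the erythroid list summing to 371.7 to 430.2 CPM in KO-O2 and 983.9 to 1553 CPM in WT-O2 retinas. Relative to the endothelium list the Sox17 difference was -0.53 (SE 0.23, edgeR adjusted p = 0.17). The part of these cells in the Sox17 difference was not tested. Lef1 averaged 4.04 ± 1.101, 4.18 ± 1.59, 3.28 ± 0.536 and 2.85 ± 0.922 CPM in WT-RA, WT-O2, KO-RA and KO-O2, the groups overlapped, and the log2 difference between KO-O2 and WT-O2 was -0.55 (SE 0.33). No member passed between KO-O2 and WT-O2 retinas in edgeR, where 1.27% of genes did, and Sox17 was the single member with an unadjusted p under 0.05.

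Between the genotypes in room air no retinal member passed, where 0.00522% of genes did. Fzd4 was at 5.40, 6.37 and 7.24 CPM in WT-RA and at 8.96, 7.30 and 10.4 CPM in KO-RA mice, a log2 difference of 0.49 (SE 0.16, edgeR adjusted p = 0.27), and the highest value belonged to a lens-rich retina. Plvap was lower in all KO-RA than in all WT-RA mice, with a log2 difference of -0.47 (SE 0.19, edgeR adjusted p = 0.34). These were the 2 members with an unadjusted p under 0.05. The interaction of genotype and hyperoxia passed for no member, with none at an unadjusted p under 0.05, and for 0.00522% of genes. DESeq2 also passed no member in either comparison. The comparisons share samples (WT-RA mice enter the genotype and the hyperoxia comparison, for example), so their values are not independent of each other.

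General endothelial genes rose in the same retinas, and by more than most members. The 14 genes of the endothelium list summed to 197.3 to 227.3 CPM in room air and to 294.6 to 389.8 CPM in hyperoxia-exposed retinas. 9 of the 14 passed as higher in WT, with a median log2 fold change of 1.03, and 8 of the 14 in KO retinas, with a median of 0.83, against medians of 0.00 over all genes. Of all genes tested, 3.11% in WT and 4.38% in KO retinas passed as higher. Pecam1, an endothelial adhesion molecule, rose by 1.24 (SE 0.15, edgeR adjusted p = 0.0018) and Cdh5, the cadherin of endothelial junctions, by 1.52 (SE 0.19, edgeR adjusted p = 0.0029) in WT. Pericyte genes passed as higher in 8 of 12 in WT and 6 of 12 in KO retinas, with Rgs5 at 1.51 in WT (SE 0.18, edgeR adjusted p = 0.0020). The summed pericyte list overlapped between exposures, at 911.6 to 1145 CPM in WT-RA and 1034 to 1250 CPM in WT-O2 retinas. In KO retinas the sums were 843.4 to 933 CPM in room air and 802.4 to 959.8 CPM after hyperoxia. Without the lens-rich retinas 4 of the 14 endothelium genes passed as higher in WT and 6 in KO retinas, with medians of 1.00 and 0.80, and 1 and 2 of the 12 pericyte genes. Pecam1 at 1.19, Cdh5 at 1.63 and Rgs5 at 1.48 still passed in WT (edgeR adjusted p = 0.049, 0.031 and 0.058). Each member was also scaled to the geometric mean of the endothelium list in its library, which shifts the median of all genes by -0.87 in WT and -0.61 in KO retinas.

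On that scale Cldn5 moved with general endothelium, and most members passed as lower, as did most of all genes tested. Cldn5 differed by -0.02 (SE 0.14) in WT and 0.03 (SE 0.14) in KO retinas relative to the list. Plvap differed by -0.34 (SE 0.20, edgeR adjusted p = 0.15) in WT and 0.41 (SE 0.20, edgeR adjusted p = 0.10) in KO retinas, and Slc38a5 by -0.45 and -0.48 (SE 0.26 each), and none of these passed. The other 7 members passed as lower in both genotypes, and 6 to 7 in WT and 5 to 7 in KO retinas with single mice left out. Lrp5 was lost without WT-RA replicate 2 or WT-O2 replicate 3 in WT, and without KO-RA replicate 1, KO-O2 replicate 1 or KO-O2 replicate 2 in KO, where it went to -0.25 (edgeR adjusted p = 0.34). Lef1 was lost without WT-RA replicate 3 or WT-O2 replicate 1 in WT, and in KO without KO-RA replicate 1 or 2 or KO-O2 replicate 2 or 3 (edgeR adjusted p = 0.10 to 0.18). The share is near that of all genes, since 69.2% of genes in WT and 59.9% in KO retinas passed as lower on this scale. Mfsd2a was lowest in WT at -1.31 (SE 0.30, edgeR adjusted p = 0.0015), below the median of all genes, and Sox17 was lowest in KO at -1.01 (SE 0.23, edgeR adjusted p = 0.0031). Beside Mfsd2a, the 12 retinal pigment epithelium and choroid genes were lower in all 12 cases in WT-O2 (median log2 difference -1.27 with TMM factors, none passing), summing to 239.2 to 729.3 CPM in WT-RA and 124.7 to 281.5 CPM in WT-O2 retinas. The part of that tissue in the Mfsd2a difference was not tested. Without the lens-rich retinas, which leaves WT-RA with 1 mouse, Fzd4 (-0.42), Lrp5 (-0.50) and Lef1 (-0.69) no longer passed as lower in WT.

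The surrounding pathway genes in the retina were described by 4 lists, to be read against the 3.11% of all genes in WT and 4.38% in KO retinas that passed as higher. The list named Norrin receptor and beta-catenin machinery does not hold the members Fzd4, Lrp5 and Tspan12. It holds Lrp6, other Frizzled genes, Wnt7 ligands with their co-receptors, and genes that act with beta-catenin. None of the list's 18 genes passed in either genotype, and the list's median log2 fold change was 0.00 in WT and -0.02 in KO retinas. Its smallest p in WT belonged to Tcf7, a relative of Lef1, at 0.80 (SE 0.25, edgeR adjusted p = 0.12). Of 16 beta-catenin feedback and target genes, 2 passed in WT, Foxf2 at 1.43 (SE 0.22, edgeR adjusted p = 0.0074) and Foxq1 at 1.28 (SE 0.24, edgeR adjusted p = 0.021), both forkhead factors of brain and retinal vessels. Of all 16, 14 were higher in WT, with a median of 0.60, beside medians of 1.03 for the endothelium and 0.93 for the pericyte list. Without the lens-rich retinas the list's median was 0.91 in WT. Axin2, Nkd1, Znrf3 and Apcdd1 were then at -0.09, -0.25, -0.09 and -0.03. The part of vessel cells in the Foxf2 and Foxq1 results was not tested. In KO retinas Foxf2 was at 0.66 (SE 0.22, edgeR adjusted p = 0.11) and Foxq1 was at 0.48 (SE 0.24, edgeR adjusted p = 0.29). The other genes of this list in KO retinas are not reported here, so no difference between the genotypes can be read from these values. Of 18 other barrier endothelium genes, 2 passed as higher and 2 as lower in WT, and 3 as higher and 4 as lower in KO retinas. The metal transporter Slc39a8 rose by 1.12 in WT and 0.64 in KO, while the organic anion transporter Slco1a4 fell by 1.20 and 1.30 and its relative Slco1c1, a thyroid hormone carrier, fell by 1.34 in KO (edgeR adjusted p = 0.0032, 0.040, 0.060, 0.036 and 0.024). The part of retinal pigment epithelium and choroid, whose genes were mostly lower in the same retinas, in the Slco1a4 and Slco1c1 values was not tested. Of 13 caveolae and permeability genes, 9 passed as higher in WT, with a median of 1.02, and 6 as higher and 1 as lower in KO, with Vegfa, the main vascular growth factor, at 1.25 (SE 0.13, edgeR adjusted p = 0.0012) in WT and 1.00 (SE 0.13, edgeR adjusted p = 0.0038) in KO retinas. Without the lens-rich retinas no feedback and target gene passed in WT, where Foxf2 was then at 1.16 and Foxq1 at 1.12 (edgeR adjusted p = 0.12 and 0.18). Of the other barrier endothelium genes only Slc39a8 then passed in WT, at 1.18 (edgeR adjusted p = 0.058), and 0 as higher and 1 as lower passed in KO retinas. Slco1a4 was at -1.26 and -0.89 and Slco1c1 at -1.15 in KO, and none of these 3 values passed (edgeR adjusted p = 0.10, 0.14 and 0.11). Of the caveolae and permeability genes 4 then passed as higher in WT, and 6 as higher and 1 as lower in KO retinas, Vegfa among those higher in both at 1.19 and 1.00.

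**Figure D2:**
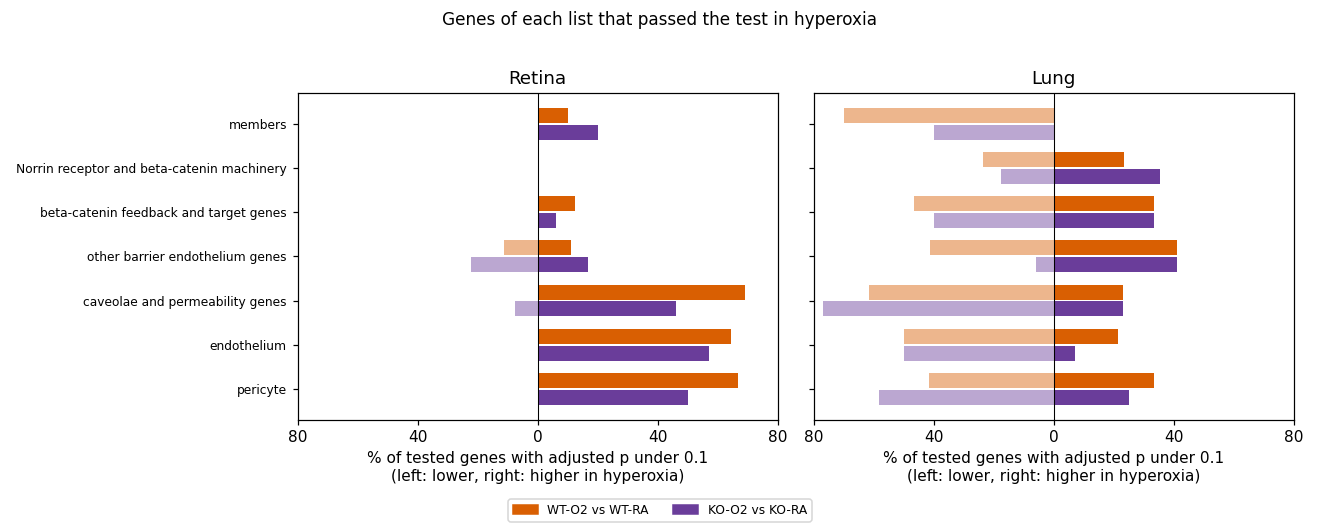
Share of each list's tested genes, in percent, that passed at an adjusted p under 0.1 after hyperoxia, as lower (pale bars to the left of 0) or higher (full bars to the right), in retina and lung, for WT and KO mice. The retinal bars of the endothelium, pericyte and caveolae lists reach to the right, apart from 1 caveolae gene in KO, the machinery list has none, and the 10 members of the lung reach to the left only.

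In the lung, 7 of the 10 members fell in WT mice and 4 in KO mice, and none rose. In the same comparisons 24.7% and 23.4% of the 16819 genes tested passed as lower, and 49.2% and 46.7% passed in either direction, so a fall was common among all genes. At a fold change of at least 2, 4 members in WT (Lef1, Sox17, Plvap and Slc38a5) and 3 in KO lungs (Sox17, Lef1 and Plvap) remained, against 6.57% and 6.03% of all genes.

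The transcription factors fell most. Sox17 was at 139.4, 141.3 and 160.5 CPM in WT-RA and at 48.1, 52.2 and 42.2 CPM in WT-O2 lungs. In KO lungs it was at 157.1, 161.4 and 131.2 CPM in room air and at 40.7, 47.0 and 47.0 CPM in hyperoxia. The groups were far apart, with log2 fold changes of -1.63 (SE 0.11, edgeR adjusted p = 3.9e-08) in WT and -1.74 (SE 0.11, edgeR adjusted p = 2.7e-08) in KO mice. Lef1 was at 18.8, 16.4 and 19.1 CPM in WT-RA and at 5.56, 4.78 and 6.62 CPM in WT-O2 lungs, and at 21.3, 20.6 and 20.04 CPM in KO-RA and 7.66, 7.33 and 6.86 CPM in KO-O2 lungs. Its log2 fold changes were -1.68 (SE 0.12, edgeR adjusted p = 1.2e-07) and -1.501 (SE 0.12, edgeR adjusted p = 4.0e-07). Lef1 is also a gene of T lymphocytes, and the T lymphocyte and thymus list summed to 35.3 to 53.8 CPM in room air and 16.5 to 35.5 CPM in hyperoxia-exposed lungs, with Cd3g, a T cell receptor chain, falling by 1.60 in WT (edgeR adjusted p = 2.1e-05). The part of lymphocytes in the Lef1 result was not tested.

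Plvap and Slc38a5 fell in both genotypes as well. Plvap, abundant in lung capillaries, was at 560.1, 451.7 and 520.4 CPM in WT-RA and at 263.6, 239.9 and 226.7 CPM in WT-O2 lungs, and at 514.2, 539.9 and 477.3 CPM in KO-RA and 194.3, 285.6 and 201.8 CPM in KO-O2 lungs. The log2 fold changes were -1.07 (SE 0.13, edgeR adjusted p = 2.1e-05) and -1.17 (SE 0.13, edgeR adjusted p = 1.0e-05), with no overlap in either genotype. Slc38a5 was at 107.5, 121.9 and 155.1 CPM in WT-RA and at 60.2, 80.7 and 48.5 CPM in WT-O2 lungs, and at 100.9, 121.4 and 109.8 CPM in KO-RA and 63.7, 70.1 and 64.6 CPM in KO-O2 lungs. It changed by -1.02 (SE 0.17, edgeR adjusted p = 0.00042) in WT and by -0.74 (SE 0.17, edgeR adjusted p = 0.0038) in KO mice. Erythroid genes summed to 15750 to 18160 CPM in WT-RA and 2921 to 4153 CPM in WT-O2 lungs, and to 12680 to 26860 CPM in KO-RA and 5972 to 29930 CPM in KO-O2 lungs. The part of erythroid cells in the Slc38a5 result was not tested.

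**Figure D3:**
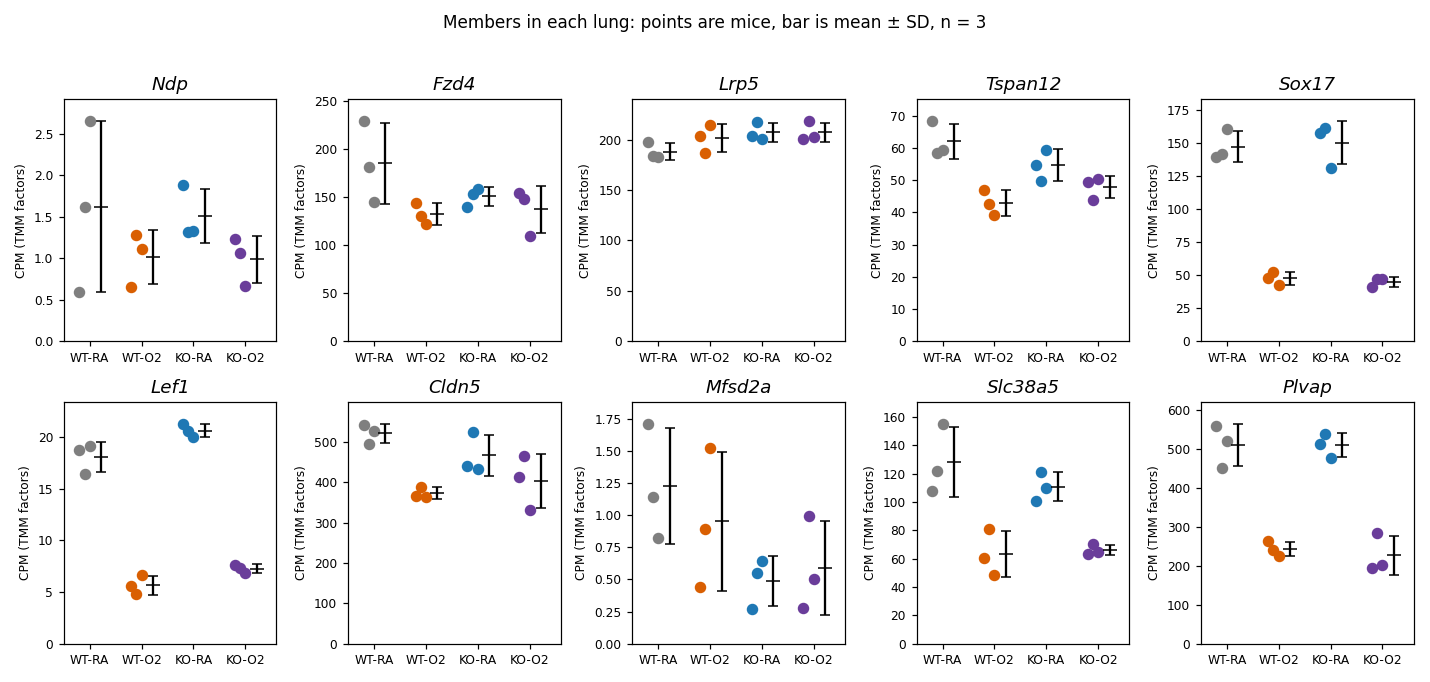
Levels of the 10 members in each lung, in CPM with TMM factors on an axis from 0, by group; points are mice and bars the mean ± SD of 3 mice. Sox17, Lef1, Plvap and Slc38a5 separate room air from hyperoxia in both genotypes, while Lrp5 sits between 182.9 and 218.5 CPM in all groups.

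Cldn5 and 2 genes of the receptor complex passed in the WT lung and not in the KO lung, and the difference between the genotypes passed for none of them. Cldn5 was at 540.7, 493.9 and 526.5 CPM in WT-RA and at 366.2, 389.1 and 363.7 CPM in WT-O2 lungs, a log2 fold change of -0.48 (SE 0.11, edgeR adjusted p = 0.0034). In KO lungs it averaged 465.9 ± 50.2 CPM in room air and 403.0 ± 67.2 CPM in hyperoxia, -0.21 on the log2 scale (SE 0.11, edgeR adjusted p = 0.16), and it passed there without KO-O2 replicate 2, at -0.32 (edgeR adjusted p = 0.050). Tspan12 fell from 62.0 ± 5.42 to 42.9 ± 3.94 CPM in WT (log2 -0.53, SE 0.10, edgeR adjusted p = 0.00054) and was 54.6 ± 4.90 and 47.8 ± 3.42 CPM in KO-RA and KO-O2 lungs (log2 -0.19, SE 0.10, edgeR adjusted p = 0.13). Without KO-RA replicate 2 it passed in KO as well, at -0.26 (edgeR adjusted p = 0.080). Fzd4 was at 228.9, 181.6 and 144.9 CPM in WT-RA and at 144.2, 130.2 and 121.8 CPM in WT-O2 lungs (log2 -0.49, SE 0.16, edgeR adjusted p = 0.023), with the groups apart by less than 1 CPM, and without WT-RA replicate 1 it missed the threshold at -0.31 (edgeR adjusted p = 0.10). In KO lungs it was 150.6 ± 9.51 and 137.3 ± 24.4 CPM (log2 -0.13, SE 0.15). The interaction, which tests the difference between genotypes, was 0.27 (SE 0.16) for Cldn5, 0.34 (SE 0.14) for Tspan12 and 0.35 (SE 0.22) for Fzd4, and none of the 10 members passed it (edgeR adjusted p of 0.68 or more), where 0.00595% of genes did. Tspan12 was the single member with an unadjusted p under 0.05 in the interaction, and DESeq2 passed none.

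Lrp5, Ndp and Mfsd2a did not pass in either genotype of the lung. The co-receptor Lrp5 averaged 188.1 ± 8.38, 202.0 ± 13.97, 207.3 ± 9.07 and 207.5 ± 9.52 CPM in WT-RA, WT-O2, KO-RA and KO-O2. Its log2 differences were 0.10 (SE 0.08) and 0.00 (SE 0.08). Ndp ranged from 0.593 to 2.65 CPM over all lungs, with log2 differences of -0.68 (SE 0.43) in WT and -0.61 (SE 0.44) in KO mice. The lowest Ndp in WT-RA was that of replicate 1, and without this mouse the WT difference was -1.07 (edgeR adjusted p = 0.030), so 1 library decided the call. Mfsd2a ranged from 0.273 to 1.71 CPM, with log2 differences of -0.36 (SE 0.48) and 0.27 (SE 0.54).

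**Figure D4:**
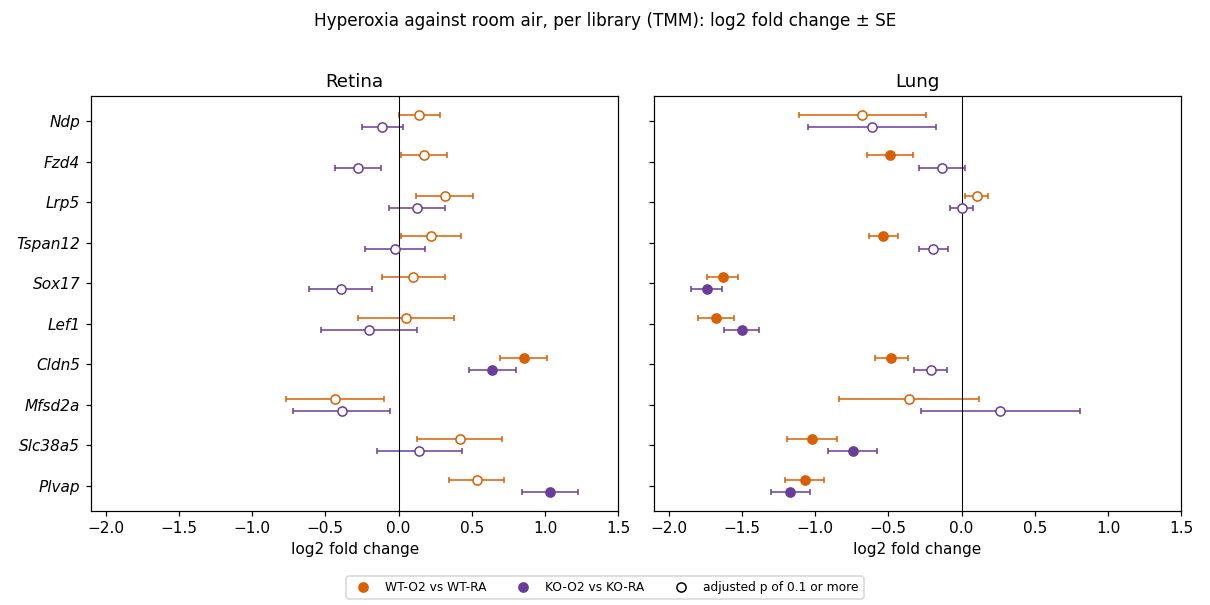
Log2 fold change ± SE of each member in hyperoxia against room air, by edgeR on TMM-scaled libraries, in retina and lung, for WT and KO mice; filled points have an adjusted p under 0.1. The filled points are Cldn5 and Plvap on the right in the retina, and 7 WT and 4 KO points on the left in the lung.

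No member passed between genotypes within an exposure in the lung. Between KO-O2 and WT-O2 lungs 0.0416% of genes passed, and the member with the smallest p was Lef1 at 0.36 (SE 0.13, edgeR adjusted p = 0.64), whose 3 KO-O2 values were above the 3 WT-O2 values. Between KO-RA and WT-RA lungs 0.488% of genes passed, and Mfsd2a had the smallest p at -1.32 (SE 0.51, edgeR adjusted p = 0.37). Each was the single member with an unadjusted p under 0.05 in its comparison, and DESeq2 passed no member in either. The sexes differed between these lungs by Y-linked expression, with 0 of 3 room air and 1 of 3 hyperoxia-exposed WT mice male, against 2 of 3 and 3 of 3 KO mice. With sex as a term no member passed between the genotypes.

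More endothelial genes fell than rose in the hyperoxia-exposed lung, and the list's median lay nearer 0 than the strongest members. The endothelium list summed to 5393 to 6275 CPM in room air and 4248 to 5171 CPM in hyperoxia, with 3 of 14 genes higher and 7 lower in WT (median log2 fold change -0.29) and 1 higher and 7 lower in KO lungs (median -0.21), where 24.7% and 23.4% of all genes passed as lower and 49.2% and 46.7% in either direction. Tek, the angiopoietin receptor, fell by 2.47 in WT (SE 0.12, edgeR adjusted p = 3.7e-09). It lay far below the list's median, and it is 1 of the 14 genes that set the scaling to this list. Relative to this list, whose scaling shifts the median of all genes by 0.51 in WT and 0.40 in KO lungs, Sox17 was lower by -1.12 (SE 0.11) in WT and -1.32 (SE 0.11) in KO lungs. Lef1 was lower by -1.16 and -1.09 (SE 0.14 each) and Plvap by -0.55 and -0.76 (SE 0.11 each). These 3 members passed as lower in both genotypes (edgeR adjusted p of 0.00019 or less) and Slc38a5 in WT at -0.51 (SE 0.18, edgeR adjusted p = 0.022), where 7.06% of genes in WT and 7.8% in KO lungs did. Lrp5 passed as higher at 0.62 and 0.41 (SE 0.09 each), and Fzd4 at 0.27 and Cldn5 at 0.20 in KO lungs, near the shift of all genes, where 65.1% and 57.3% of genes passed as higher. The Fzd4 and Cldn5 calls in KO rested on single mice, since Fzd4 went to 0.17 without KO-O2 replicate 1 (edgeR adjusted p = 0.32) and was also lost without KO-O2 replicate 2 or KO-RA replicate 1 or 2. Cldn5 went to 0.14 without KO-O2 replicate 2 (edgeR adjusted p = 0.31) and was also lost without KO-O2 replicate 1, KO-RA replicate 1 or 3, WT-RA replicate 2 or WT-O2 replicate 2 or 3. Over these settings 4 to 8 members passed in KO lungs. Cldn5, at 0.04 (SE 0.10) in WT, moved with the list there.

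**Figure D5:**
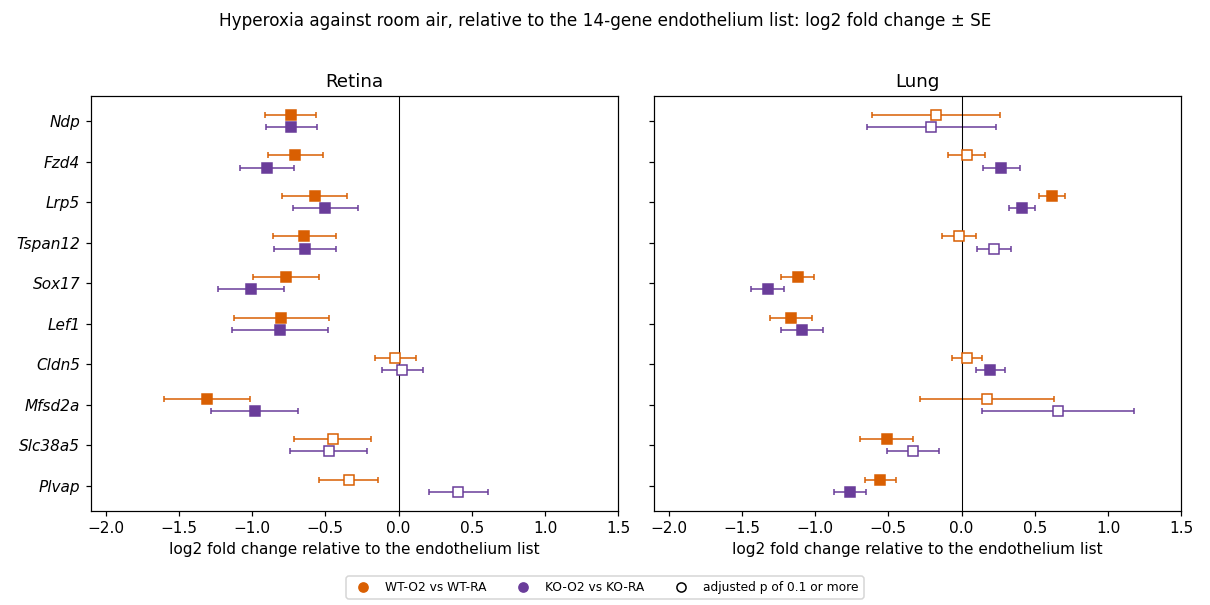
Log2 fold change ± SE of each member in hyperoxia against room air relative to the 14-gene endothelium list, in retina and lung, for WT and KO mice; filled points have an adjusted p under 0.1. Cldn5 lies near 0 in the retina and in the WT lung, while Sox17 and Lef1 lie below 0 in both tissues. The scaling itself shifts the median of all genes by -0.87 in WT and -0.61 in KO retinas. In lungs it shifts that median by 0.51 in WT and 0.40 in KO.

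Genes of the wider pathway passed in both directions in the lung, as did 49.2% of all genes in WT and 46.7% in KO lungs, and the machinery list in both genotypes and the other barrier genes in KO were near those shares. Of 17 tested genes of the Norrin receptor and beta-catenin machinery, 4 passed as higher and 4 as lower in WT and 6 and 3 in KO lungs, with Reck, a co-receptor for Wnt7 ligands, falling by 1.18 in WT and 1.05 in KO lungs, Wnt7b itself rising by 0.63 and 0.87, and Tcf7 falling by 0.77 in WT (SE 0.08, 0.08, 0.09, 0.09 and 0.10). Of 15 tested feedback and target genes, 5 were higher and 7 lower in WT and 5 and 6 in KO lungs. Ccnd1, which encodes cyclin D1, rose by 2.14 in WT (SE 0.10, edgeR adjusted p = 1.6e-09) and 1.87 in KO lungs (SE 0.09, edgeR adjusted p = 7.3e-09), while the secreted Wnt inhibitors Wif1 and Notum fell by 2.09 and 1.39 in WT (SE 0.21 and 0.15, edgeR adjusted p = 3.4e-06 and 6.4e-06). Of 17 tested other barrier endothelium genes, 7 were higher and 7 lower in WT and 7 and 1 in KO lungs, and the glucose transporter Slc2a1 rose by 1.14 and 1.04 (SE 0.11 each). Of 13 caveolae and permeability genes, 3 were higher in both genotypes and 8 in WT and 10 in KO lungs were lower, with Angpt2, a destabilizing ligand of Tek, rising by 1.77 in WT (SE 0.11, edgeR adjusted p = 3.9e-08) and Cav1, the main caveolar protein, falling by 1.34 (SE 0.11, edgeR adjusted p = 3.8e-07). All 4 lists had medians between -0.62 and 0.10 on the log2 scale in the lung.

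The genes whose pattern over the 12 libraries of a tissue was most like that of a member, by Pearson's r of log2(CPM + 1), are given as a description. For retinal Cldn5 these were Galns (r = 0.95), Cd34 (r = 0.95), a surface marker of endothelium, and C130074G19Rik (r = 0.95), and for retinal Plvap they were Ptprn, Plod1 and Rhbdf2 (r = 0.94 each). For lung Plvap the nearest gene was Gpihbp1 (r = 0.99), which carries lipoprotein lipase on capillaries. The libraries of a tissue share the split into room air and hyperoxia, which sets much of any such r, and the room air retinas share their sex.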

How the data were processed

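Whole-tissue RNA of 12 lungs and 12 retinas was sequenced, 1 library per mouse. The authors assigned reads to mouse transcripts with kallisto, summed them per gene with tximport and deposited expected counts (estimated counts), 36109 genes for the lung and 36595 for the retina. The authors tested them with DESeq2. The settings of tximport are not given in the sources used here, so whether these counts were scaled by length or library size is unknown, and the sources name different genome builds (mm10 in the submitters' processing notes), so no gene coordinates are given other than RefSeq start windows. Exactly whole numbers made up 25.7% of nonzero lung values and 0.0212% of nonzero retina values, so each tissue was tested alone.

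Counts were rounded and fitted in R 4.3.3 with edgeR 4.0.16, using TMM factors and 1 model of the 4 groups for all 12 libraries of a tissue. The filterByExpr step kept 16819 lung genes and 19173 retina genes. Tests were quasi-likelihood F-tests with robust=TRUE and Benjamini-Hochberg adjustment over all genes tested, 2-sided, and a gene passed at an adjusted p under 0.1. The SE of a log2 fold change was its size divided by the root of its F value. The 5 contrasts were hyperoxia within WT, hyperoxia within KO, the genotypes after hyperoxia, the genotypes in room air, and the interaction. The scaling to the endothelium list replaced TMM factors by the geometric mean of the 14 genes' counts (plus 0.5). Sex was read from 4 Y-linked genes at over 20 CPM. Each library comes from its own mouse, and the tests set each difference against the spread between mice within the 4 groups. Litters are not given in the labels and were not modelled. A simulation for the WT hyperoxia contrast changed 200 genes above 1 CPM, in WT-O2 only. It recovered 61% of 2-fold and 19% of 1.5-fold changes among 19173 retina genes, and 89% and 70% among 16819 lung genes. Of the genes passing in it, 6.98% in the retina and 10.2% in the lung were false. Under these settings many retinal changes of 2-fold or less could be missed. In the real WT lung contrast 49.2% of genes passed, so the simulated lung shares need not hold there.

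The members and gene lists were chosen with earlier results of these data known. Genes were named by rule: all members, Gsdmd, up to 3 genes of a list with the smallest p in a comparison, and the 3 nearest patterns among genes averaging 5 CPM or more. Alternatives were RLE factors, no low-count filter, DESeq2 1.42.0, a sex term, only the groups compared, each mouse left out, a short endothelium list of 7 genes and, chosen after seeing the data, the lens-rich retinas left out. The feedback and target list in KO retinas is not reported in full here.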

Additional observations from a re-analysis of the deposited data

Results flagged for a closer look

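Several members moved one way in all 3 hyperoxia-exposed mice of a group in 1 tissue and the other way in the other tissue, each mouse being set against the room air mean of its group. The difference between tissues was not tested, since the tables were made and normalized separately, and the exposures differed in days, oxygen and recovery. Beside these values, of the 14 endothelium genes in WT mice 9 passed as higher and 0 as lower in the retina. There 3.11% of all genes passed as higher. In the WT lung 3 of the 14 passed as higher and 7 as lower, where 49.2% of all genes passed in either direction. In WT mice the log2 values in retina and lung were 0.14 and -0.68 for Ndp, 0.17 and -0.49 for Fzd4, 0.22 and -0.53 for Tspan12, 0.85 and -0.48 for Cldn5, 0.53 and -1.07 for Plvap, and 0.42 and -1.02 for Slc38a5. Of these 12 values, the retinal ones other than Cldn5 and the lung value of Ndp did not pass the test in their own tissue. For retinal Slc38a5 the direction is undecided for WT-O2 replicate 2, which lay at the WT-RA mean to within rounding (3.992 CPM for both).

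In KO mice the pairs were 0.64 and -0.21 for Cldn5, 1.03 and -1.17 for Plvap, and 0.14 and -0.74 for Slc38a5, of which the lung value of Cldn5 and the retinal value of Slc38a5 did not pass. For lung Cldn5 the direction is close to undecided for KO-O2 replicate 2, which at 465.6 CPM lay barely below the KO-RA mean.

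Within the retina, Fzd4 was higher than the room air mean in all WT-O2 mice and lower in all KO-O2 mice. The interaction was -0.45 (SE 0.22) and did not pass (edgeR adjusted p = 0.50). The room air values were themselves higher in KO than in WT mice, with the highest, 10.4 CPM, in a lens-rich retina.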

How the results depend on the processing

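No result reversed under any alternative. The count of members that passed was the same within 1.5 times under RLE factors, without the low-count filter, with a sex term, with only the groups compared and with the short endothelium list. In WT retinas it went from 1 to 0 without the lens-rich retinas and at a fold change of at least 2. In KO retinas it went from 2 to 1 under both of these, and leaving out single mice gave 1 to 2: without KO-RA replicate 1, KO-RA replicate 3 or KO-O2 replicate 2, Cldn5 was 0.59, 0.59 and 0.60 (edgeR adjusted p = 0.16, 0.15 and 0.18). Between KO-O2 and WT-O2 retinas it went from 0 to 1 with DESeq2, through Sox17. Relative to the endothelium list, Fzd4, Lrp5 and Lef1 no longer passed in WT retinas without the lens-rich retinas. In WT lungs the count with TMM factors went from 7 to 4 at a fold change of at least 2. The cause was not tested, except that the lens-rich setting leaves 1 WT-RA mouse, assumed to vary like the others. Without the lens-rich retinas the counts of list genes passing as higher in WT went from 9 to 4 for endothelium and from 8 to 1 for pericytes. A sign changed in 178 values that passed in neither fit, 158 of them by at most 1 SE, and in 0 values that passed.

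The short endothelium list brought retinal Plvap (-0.50) and Slc38a5 (-0.59) in WT, and Slc38a5 in KO retinas (-0.62) and KO lungs (-0.38), past the threshold, and lung Fzd4 (0.21) and Cldn5 (0.14) no longer passed in KO, and with a sex term Gsdmd between KO-RA and WT-RA lungs was -0.77 and did not pass (edgeR adjusted p = 0.16). No paired analysis was possible because the labels give animal numbers that are not shared between groups. Retinal Lef1 and Slc38a5 rest on 62 to 199 counts per library and lung Ndp and Mfsd2a on 8 to 77, which limits what could be detected for them.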
